A study of Mus musculus with 6 samples.

Results

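The 36 genes described here are transcripts of macrophages and their myeloid relatives, read in the mouse uterus on Affymetrix expression arrays. They are genes for the macrophage growth factor axis, surface markers, complement C1q, Fc receptors and their adaptors, lysosomal enzymes, scavenger receptors and activation products. The genes were matched by symbol, and all 36 were found among the 18193 genes that the arrays measured. Uterine RNA of 3 mutant and 3 control samples from intact female mice aged 4 weeks was hybridized to 6 arrays. The mutant mice were Pgr cre/+ Ctnnb1 f(ex3)/+. Their Cre recombinase is driven by Pgr, the progesterone receptor gene, and cuts exon 3 out of Ctnnb1 wherever Pgr is active, leaving a β-catenin protein that is not degraded. The arrays read whole uterus and not sorted macrophages. The control mice were Pgr cre/+ and Ctnnb1 f(ex3)/+ by the methods, although the labels give their genotype as wild type. By the methods, uteri of 3 mice of each genotype gave pooled RNA. Whether the 3 arrays of a group held separate animals is thus unsettled, and every p-value here covers the spread among 6 arrays, some or all of which may be technical.

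Macrophages are phagocytes that live in nearly every tissue. They depend on the growth factor CSF1 and its receptor CSF1R, and the transcription factor PU.1, encoded by Spi1, sets up their gene program. In the uterus they lie in the stroma and the muscle wall, where they clear dead cells and take part in remodelling over the cycle and around birth. Resident macrophages of many tissues make large amounts of C1q, the recognition part of the classical complement pathway, and carry receptors for antibodies, fungal sugars, hemoglobin and cell debris.

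The deposited values are intensities of probe sets, groups of short probes that read 1 transcript, on a linear scale. They ran from 1.99 to 10886.56, and per array 62.3 to 62.6% of the readings were under 16. Each gene was read by its brightest probe set, and fold changes were taken on log2 values as mutant over control. Across probe sets, which are no independent replicates, Pearson's r was 0.994 between mutant arrays, 0.992 to 0.996 between control arrays and 0.981 to 0.99 between the groups. Ctnnb1 read 3367, 3879 and 3912 in mutant replicates 1 to 3, against 2920, 2970 and 2964 in control replicates 1 to 3, a log2 difference of 0.33 ± 0.09 (SE, adjusted p = 0.0498, limma). Its probes were not placed relative to exon 3, so this does not check the deletion. All 12 uterine stromal, 11 uterine epithelial and 9 of 10 smooth muscle markers had a mean intensity of 16 or more, as the labelled tissue requires. So did 10253 of all 18193 genes and all 12 blood endothelial markers, so this does not single out the uterus. The number of arrays limits the precision.

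Macrophage transcripts as a group moved unevenly, with C1q, the dectin gene Clec7a, Aif1, Fcgr1 and Lyz2 higher in mutant uteri and the growth factor axis, Cd68 and the activation genes without a call. With an adjusted p under 0.05 in limma as the threshold, 7 of the 36 genes (19.4%) were called higher in mutant uteri, against 5.61% of all genes tested. These were Aif1, C1qa, C1qb, C1qc, Fcgr1, Clec7a and Lyz2. Itgax was the 1 gene called lower (2.78%), against 6.36% of all genes. The 36 genes were chosen with earlier results of these data known. Their shares and median beside those of all genes describe this list and are no independent test. The changes were small, and Clec7a was the 1 called gene past 1.5-fold. In a t-test with adjustment Lyz2 alone of the 36 genes was called (2.78%), against 0.577% of all genes called higher. In bulk tissue, fewer cells of a type and less RNA per cell cannot be told apart, and the same holds for more cells and more RNA per cell. For 14 genes (38.9%) every mutant array read above every control array, against 14.9% of all genes, and for 5 genes (13.9%) every mutant array read below every control array, against 17.4% of all genes. The other 17 genes overlapped. The median log2 fold change of the 36 genes was 0.21, against -0.01 over all genes tested, and 27 genes were positive and 9 negative. Without adjustment for multiple tests, 16 genes (44.4%) had a p under 0.05 in limma and were higher, against 2192 of all 18193 genes. At that threshold 3 genes (8.33%) were lower, against 2627 of all genes. The 27 genes with a mean intensity of 16 or more held all 7 higher calls, against 7.58% of all genes that bright, and 0 lower calls (1 at an unadjusted p under 0.05, 0 in a t-test with adjustment), against 9.65%. Of these 27, 13 lay apart upward, against 19.5%. The other 9, Spi1, Itgam, Itgax, Trem2, Msr1, Marco, Arg1, Nos2 and Tnf, had a median log2 fold change of -0.09. Without control replicate 1 limma called 0 of the 36 genes in either direction, while 12 were higher and 3 lower at an unadjusted p under 0.05 and the share called higher among all genes was 2.64%. Without mutant replicate 1 it called 8 higher (22.2%), against 5.34% of all genes. Control replicate 2 and mutant replicate 1 had been set apart by earlier results of these data. Without both, 5 of the 36 genes were called higher (13.9%), against 4.17% of all genes. These 5 were C1qa, C1qb, Clec7a, Cd163 and Lyve1. Itgax was called lower, as were 4.25% of all genes.

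**Figure D1:**
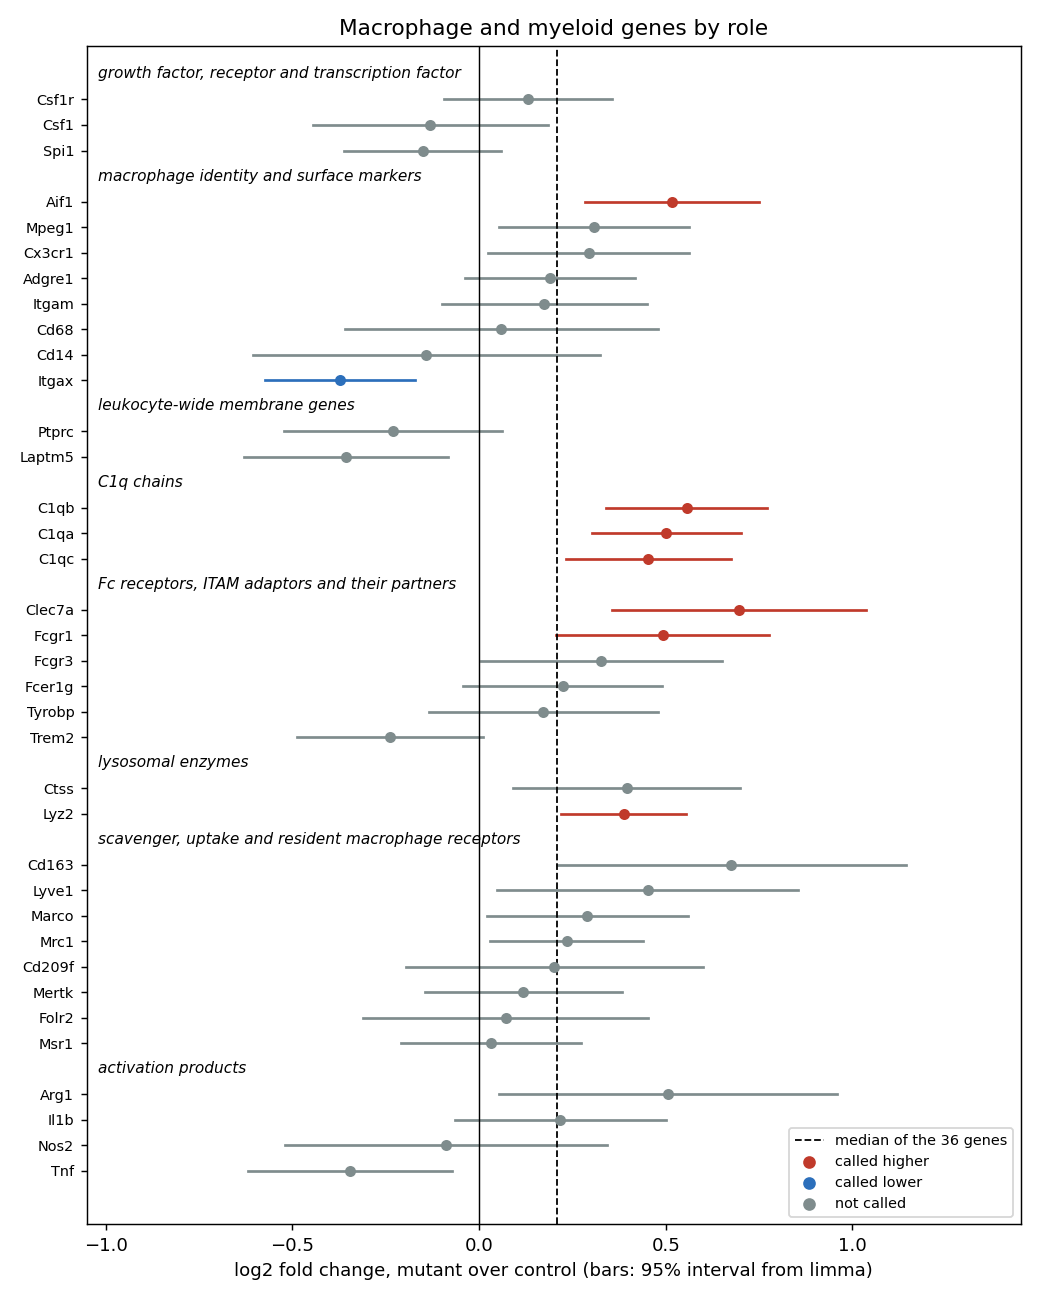
Log2 fold change, mutant over control, of the 36 myeloid genes grouped by role, with bars for the 95% interval from limma and a dashed line at their median of 0.21. The 7 genes called higher are red, Itgax, called lower, is blue, and the other 28 are grey.

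The 3 genes of C1q, which lie next to each other on chromosome 4 and encode the A, B and C chains of 1 protein, were all higher in mutant uteri. C1qa read 222, 234 and 239 in mutant replicates 1 to 3, against 154, 177 and 161 in control replicates 1 to 3. C1qb had intensities of 152, 159 and 178 in the mutant arrays, against 106, 117 and 108 in the control arrays. C1qc stood at 84.0, 81.7 and 96.3 in the mutant arrays, against 59.7, 66.4 and 64.9 in the control arrays. For all 3 chains the lowest mutant array lay above the highest control array, and control replicate 1 was the lowest of the 6 arrays. The fold change was 1.42 for C1qa (95% interval 1.23 to 1.63, adjusted p = 0.0111, limma), 1.47 for C1qb (1.27 to 1.71, adjusted p = 0.00993) and 1.37 for C1qc (1.18 to 1.6, adjusted p = 0.0224). Set against the control mean of each chain, the mutant arrays were 0.44, 0.52 and 0.55 higher for C1qa, 0.46, 0.52 and 0.69 for C1qb and 0.40, 0.36 and 0.60 for C1qc on the log2 scale, so mutant replicate 3 was the highest for each chain. The control arrays spanned -0.09 to 0.11 on that scale for C1qa, -0.06 to 0.09 for C1qb and -0.09 to 0.06 for C1qc. The calls depended on control replicate 1, without which the adjusted p was 0.0563 for C1qa, 0.0528 for C1qb and 0.0939 for C1qc, with log2 fold changes of 0.46, 0.52 and 0.41. C1qc was also not called without control replicate 3 (adjusted p = 0.0553) or mutant replicate 3 (0.0603). Over the 18 alternatives the adjusted p ran from 0.00462 to 0.0639 for C1qa, from 0.00428 to 0.185 for C1qb and from 0.00882 to 0.0975 for C1qc. The highest value for C1qb came from the mean of its 3 probe sets, since the other 2, whose names mark probes that can match other transcripts, had log2 fold changes of 0.22 (adjusted p over all probe sets = 0.544) and 0.09 (0.765).

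**Figure D2:**
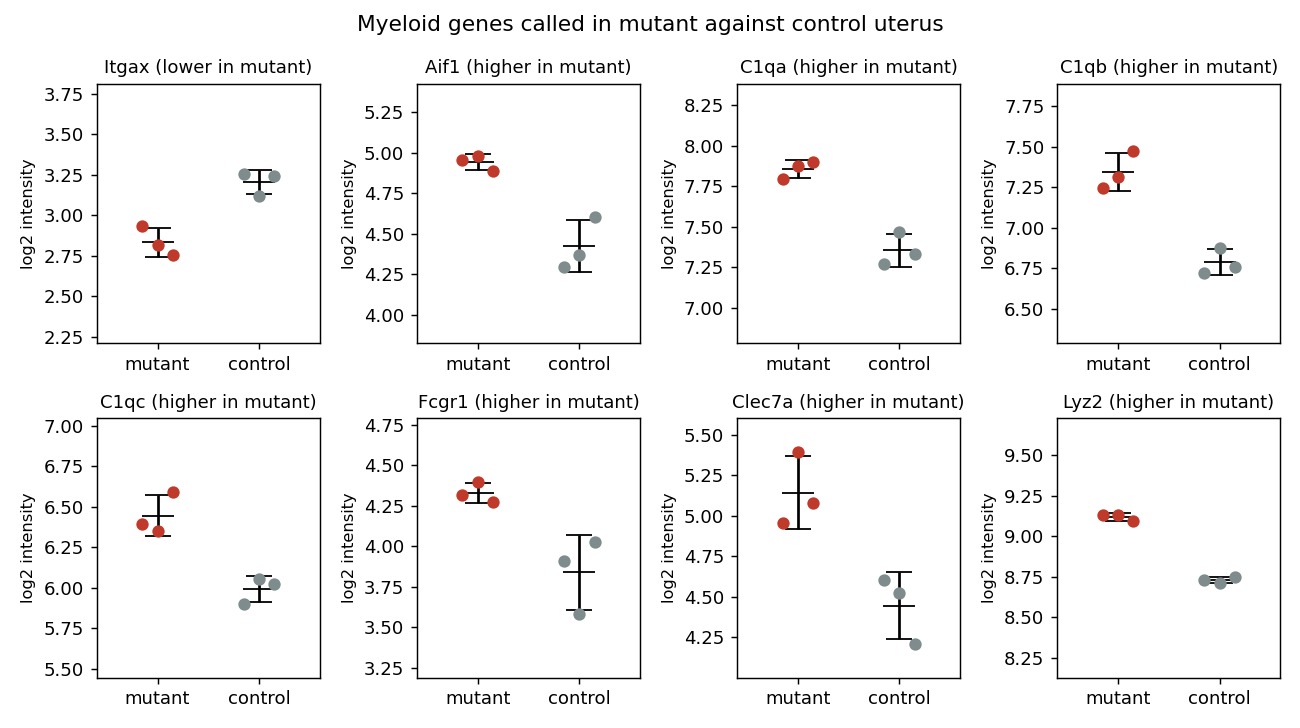
Log2 intensity of the 8 called genes on each array, mutant left and control right, with points for arrays and bars for the mean and SD of 3 arrays. In every panel the 3 mutant arrays lie on one side of the 3 control arrays, above them for 7 genes and below them for Itgax.

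The stretches before the start of C1qb, C1qc and Clec7a are shown as examples. These genes were called higher, and each held a match to a site of PU.1, the factor that sets up the myeloid program. The stretches come from RefSeq on GRCm38.p6, run 5′ to 3′ on the gene's own strand, the minus strand, and hold the 250 bases before the start. C1qb covers chr4:136886201-136886450, C1qc chr4:136892915-136893164 and Clec7a chr6:129472780-129473029. Capitals mark matches on either strand to GAGGAAGT, a PU.1 site, to GAGGAA, its core and part of the longer word, or to the composite site of PU.1 and an IRF factor, which reads GGAA, any 2 bases, then GAAA.
C1qb: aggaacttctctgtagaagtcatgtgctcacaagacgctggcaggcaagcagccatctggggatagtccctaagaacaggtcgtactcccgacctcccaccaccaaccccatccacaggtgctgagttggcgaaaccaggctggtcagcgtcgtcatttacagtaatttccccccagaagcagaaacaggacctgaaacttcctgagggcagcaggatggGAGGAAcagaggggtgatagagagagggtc
C1qc: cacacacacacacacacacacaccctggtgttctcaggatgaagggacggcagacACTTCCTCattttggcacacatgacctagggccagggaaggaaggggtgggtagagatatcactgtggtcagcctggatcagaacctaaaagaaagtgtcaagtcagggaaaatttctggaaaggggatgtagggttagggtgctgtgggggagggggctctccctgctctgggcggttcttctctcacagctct
Clec7a: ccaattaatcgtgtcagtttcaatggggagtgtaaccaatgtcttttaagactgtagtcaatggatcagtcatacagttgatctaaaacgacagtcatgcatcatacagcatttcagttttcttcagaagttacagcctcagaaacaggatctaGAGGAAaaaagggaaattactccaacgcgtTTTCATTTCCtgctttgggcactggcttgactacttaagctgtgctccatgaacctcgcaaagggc
The table of promoters, which run from 250 bases before to 50 bases after the start, held 30 promoters of 26 of the 36 genes. GAGGAAGT stood in 2 of these 30 (6.67%, C1qc and Ctss), against 3.2% of all 32851 promoters. Its core GAGGAA stood in 17 of 30 (56.7%, from 15 genes), against 28.3% of all promoters, and among the called genes in Aif1, C1qb, C1qc, Fcgr1 and Clec7a. The other genes with the core, Cd68, Itgam, Ptprc, Laptm5, Fcgr3, Trem2, Ctss, Mrc1, Marco and Tnf, were not called. The composite site stood in 4 of 30 (13.3%, from Cd68, Clec7a and Folr2), against 2.72% of all promoters. Of the other called genes, Lyz2 and Itgax had promoters in the table without any of these matches, and C1qa was not in it. A match describes the letters in this window and is not a measured binding site.

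Among the receptors that signal through the ITAM motif or read antibodies, Clec7a and Fcgr1 were higher in mutant uteri, and the adaptor genes Fcer1g and Tyrobp were not called. Clec7a encodes dectin-1, the receptor for fungal β-glucan, and read 31.1, 42.0 and 33.8 in mutant replicates 1 to 3, against 24.3, 23.0 and 18.5 in control replicates 1 to 3. Its groups did not overlap, mutant replicate 2 was the highest and control replicate 3 the lowest. This was the largest fold change of the 36 genes, 1.62 (95% interval 1.28 to 2.05, adjusted p = 0.0225, limma). Fcgr1, the high-affinity receptor for IgG, had intensities of 19.9, 21.1 and 19.4 in the mutant arrays, against 15, 12 and 16.3 in the control arrays, a 1.41-fold difference (1.15 to 1.71, adjusted p = 0.0404). The mutant arrays lay close together just above all control arrays, and control replicate 2 was the lowest. Both calls were narrow. Clec7a was not called without control replicate 1, control replicate 3, mutant replicate 2 or mutant replicate 3 (log2 fold change 0.57 to 0.78, adjusted p 0.0507 to 0.0677), and Fcgr1 was called without control replicate 3 but not without any of the other 5 arrays (0.36 to 0.53, adjusted p 0.0676 to 0.132). Over the 18 alternatives the adjusted p ran from 0.0202 to 0.135 for Clec7a and from 0.0269 to 0.156 for Fcgr1. Neither was called in a t-test with adjustment, and Clec7a was not called with intensities below 16 set to 16. That floor left the readings of Clec7a unchanged, since none was under 16. Fcgr1 has a second probe set, which gave 0.20 on the log2 scale (adjusted p over all probe sets = 0.275).

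Fcgr3, the low-affinity IgG receptor of macrophages and NK cells, read 55.9, 54.6 and 72.7 in mutant replicates 1 to 3, against 52.9, 50.2 and 42.3 in control replicates 1 to 3. The groups lay apart but close, and limma gave a log2 fold change of 0.33 ± 0.14 (SE) with an adjusted p of 0.184. Fcer1g encodes the γ chain through which Fc receptors signal, and had intensities of 147, 134 and 123 in the mutant arrays, against 101, 128 and 118 in the control arrays (log2 fold change 0.22 ± 0.11, adjusted p = 0.272). Tyrobp, the DAP12 adaptor of TREM2 and related receptors, stood at 187, 178 and 168 in the mutant arrays, against 148, 192 and 138 in the control arrays (0.17 ± 0.13, adjusted p = 0.476). Control replicate 2 lay within the mutant range for Fcer1g and above all mutant arrays for Tyrobp. Trem2, the lipid receptor of macrophages, microglia and osteoclasts, read 8.16, 10 and 10.2 in the mutant arrays, against 10.9, 10.7 and 11.7 in the control arrays, with all mutant arrays below all control arrays at dim values (-0.24 ± 0.11, adjusted p = 0.206).

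Lyz2, which encodes the lysozyme of macrophages, gave the most even readings of the 36 genes apart from Cd68 in the mutant arrays. It read 562, 560.2 and 546 in mutant replicates 1 to 3, against 425, 420 and 430 in control replicates 1 to 3. The gap between the groups was several times the spread within either, and the fold change was 1.31 (95% interval 1.17 to 1.47, adjusted p = 0.0146, limma). Lyz2 was not called without control replicate 1 (log2 fold change 0.39, adjusted p = 0.0666), and over the 18 alternatives its adjusted p ran from 0.00446 to 0.0855. Lyz1, its near-identical neighbour made by Paneth cells, can share probes with it, so the value is uncertain to that extent. Ctss, the protease that cuts the invariant chain of MHC class II, had intensities of 217, 310.4 and 246 in the mutant arrays, against 197, 192 and 193 in the control arrays. All mutant arrays of Ctss lay above all control arrays, with mutant replicate 2 far above mutant replicate 1, and the log2 fold change of 0.40 ± 0.13 (SE) had an adjusted p of 0.0994. Without mutant replicate 1 it was called higher (0.51, adjusted p = 0.0415), while over the 18 alternatives the adjusted p ran from 0.0415 to 0.247.

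Of 8 identity and surface markers, Aif1 was higher and Itgax lower in mutant uteri. Aif1 encodes IBA1, an actin-binding protein used to stain macrophages and microglia, and read 31.1, 31.6 and 29.6 in mutant replicates 1 to 3, against 19.7, 20.7 and 24.4 in control replicates 1 to 3. The mutant arrays were close to each other and above all control arrays, of which control replicate 3 was nearest. The fold change was 1.43 (95% interval 1.22 to 1.68, adjusted p = 0.0171, limma). The call was lost without control replicate 1 (log2 fold change 0.45, adjusted p = 0.0733), control replicate 2 (0.49, 0.0532) or mutant replicate 2 (0.50, 0.0642), with a range of 0.00751 to 0.0987 over the 18 alternatives, and the 1 probe set of Aif1 is of a kind whose probes can match other transcripts. Itgax encodes CD11c, an integrin of dendritic cells and some macrophages, and had intensities of 7.63, 7.04 and 6.74 in the mutant arrays, against 9.56, 8.68 and 9.46 in the control arrays. These groups did not overlap, but all 6 values lay well below 16. The fold change was 0.773 (0.672 to 0.888, adjusted p = 0.0322), and the call was lost without control replicate 1, control replicate 3, mutant replicate 2 or mutant replicate 3 (log2 fold change -0.36 to -0.33, adjusted p 0.0872 to 0.125). Over the 18 alternatives its adjusted p ran from 0.0147 to 1, the last with intensities below 16 set to 16, which left no difference. Aif1 was not called with that floor either, though none of its readings was under 16. Neither Aif1 nor Itgax was called in a t-test with adjustment.

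The other 6 surface markers were not called. Cx3cr1, the fractalkine receptor of monocytes and resident macrophages, read 36.3, 41.7 and 35.4 in mutant replicates 1 to 3, against 27.0, 31.4 and 34.4 in control replicates 1 to 3 (log2 fold change 0.29 ± 0.12 SE, adjusted p = 0.153). Mpeg1, which encodes the pore-forming protein perforin-2 of macrophages, had 95.2, 107 and 89.5 in the mutant arrays, against 83.9, 82.4 and 69.7 in the control arrays (0.31 ± 0.11, adjusted p = 0.119). For both genes all mutant arrays read above all control arrays. Adgre1, the F4/80 antigen, stood at 32.1, 29.7 and 34.6 in the mutant arrays, against 28.8, 30.1 and 25.7 in the control arrays, where control replicate 2 lay within the mutant range (0.19 ± 0.10, adjusted p = 0.272). Cd68, the lysosomal glycoprotein macrosialin, read 36.6, 36.7 and 36.4 in the mutant arrays, against 34.8, 26.8 and 46.4 in the control arrays. The control arrays of Cd68 lay on both sides of the mutant arrays, and the log2 fold change was 0.06 with a 95% interval of -0.36 to 0.48 (adjusted p = 0.878). Cd14, the co-receptor for bacterial lipopolysaccharide, spread widely, from 108 to 184 in the mutant arrays and from 128 to 161 in the control arrays (-0.14 ± 0.20, adjusted p = 0.721). Itgam, which encodes CD11b of macrophages, monocytes, neutrophils and NK cells, was dim at 3.59 to 4.02 in the mutant arrays and 3.07 to 3.95 in the control arrays (0.17 ± 0.12, adjusted p = 0.41), so a marker central to the lineage was read near the bottom of the scale here.

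The genes of the growth factor axis gave no call in either direction, and 0 of 3 had an unadjusted p under 0.05 in limma or an adjusted p under 0.05 in a t-test. Csf1r, the receptor on which macrophages depend and the brightest of the 3, read 425, 420.2 and 458 in mutant replicates 1 to 3, against 400.2, 435 and 357 in control replicates 1 to 3. The groups overlapped, and the log2 fold change was 0.13 with a 95% interval of -0.09 to 0.36 (adjusted p = 0.456). Csf1, its ligand, had 45.3, 39.8 and 32.3 in the mutant arrays, against 39.6, 46.7 and 41.3 in the control arrays, which also overlapped (-0.13, interval -0.45 to 0.18, adjusted p = 0.614). Spi1 stood at 9.54 to 10.4 in the mutant arrays and 10.1 to 11.9 in the control arrays (-0.15, interval -0.36 to 0.06, adjusted p = 0.347). The probe sets of Csf1 and Csf1r disagreed in sign, from -0.13 to 0.23 over 4 probe sets of Csf1 and from -0.09 to 0.16 over 3 of Csf1r, and none of these was called.

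Neither of the 2 transcripts shared by most leukocytes was called in limma or in a t-test with adjustment, and 1 of them was lower at an unadjusted p under 0.05. Ptprc, which encodes CD45, read 96.4, 99.6 and 78.0 in mutant replicates 1 to 3, against 100.2, 121 and 100.1 in control replicates 1 to 3. Its mutant arrays lay just below its control arrays, with a log2 fold change of -0.23 ± 0.13 (SE) and an adjusted p of 0.3. Laptm5, a lysosomal membrane protein of blood cells, had intensities of 109, 115 and 95.8 in the mutant arrays, against 134, 155 and 121 in the control arrays (-0.36 ± 0.12, adjusted p = 0.0967). All mutant arrays of this probe set read below all control arrays, and control replicate 2 was the highest for both genes. The direction of Laptm5 rested on the probe set. Of its 5 probe sets 3 were negative, at -0.36, -0.20 and -0.18, and 2 were positive, at 0.15 and 0.64, the last with an adjusted p of 0.00364 over all probe sets. All but the one at 0.64 have names that mark probes that can match other transcripts, and the one at -0.18 read only 3.43 to 4.08. The value of Laptm5 is therefore uncertain, and its adjusted p over the 18 alternatives ran from 0.00521, with the probe set at 0.64, to 0.957.

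**Figure D3:**
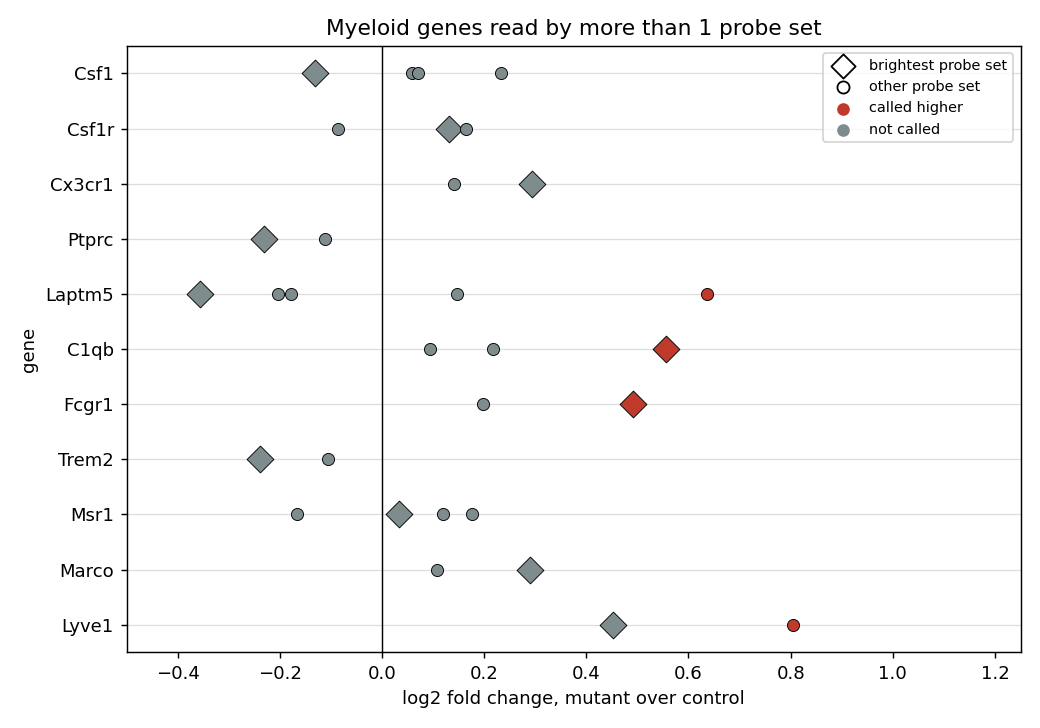
Log2 fold change, mutant over control, of each probe set of the 11 myeloid genes that have more than 1, with diamonds for the brightest probe set and circles for the others, red where called higher at an adjusted p under 0.05 over all probe sets. Csf1, Csf1r, Laptm5 and Msr1 have probe sets of both signs, and the other 7 genes have probe sets of 1 sign.

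All 8 receptors for scavenging, uptake and tissue residence had positive log2 fold changes, with a median of 0.22, but 0 passed the threshold in limma, against 4 at an unadjusted p under 0.05 and 0 in a t-test with adjustment. Cd163, which takes up hemoglobin bound to haptoglobin, read 24.4, 31.7 and 37.7 in mutant replicates 1 to 3, against 21.4, 22.3 and 15 in control replicates 1 to 3. The groups lay apart, but both spread widely, and the log2 fold change of 0.68 ± 0.20 (SE) had an adjusted p of 0.073. Without mutant replicate 1 Cd163 was called higher (0.84, adjusted p = 0.0375), with a range of 0.0375 to 0.236 over the 18 alternatives. Mrc1, the mannose receptor CD206, had 114, 109 and 113 in the mutant arrays, against 86.7, 101 and 99.0 in the control arrays, again without overlap (0.23 ± 0.09, adjusted p = 0.138). Lyve1, the hyaluronan receptor shared by perivascular macrophages and lymphatic endothelium, stood at 122, 168 and 128 in the mutant arrays, against 91.1, 127 and 89.2 in the control arrays. Mutant replicate 1 of Lyve1 lay below control replicate 2, and limma gave 0.45 ± 0.17 with an adjusted p of 0.144. On the second probe set of Lyve1 the log2 value was 0.80 higher in the mutant arrays (adjusted p = 0.0209 over all probe sets).

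The 5 remaining receptors were not called. Marco, a scavenger receptor for bacteria and particles, was at the bottom of the scale, with 5.2, 4.25 and 3.98 in mutant replicates 1 to 3, against 3.48, 3.56 and 3.89 in control replicates 1 to 3 (log2 fold change 0.29 ± 0.12 SE, adjusted p = 0.16). Its groups did not overlap but nearly touched. Mertk, a receptor kinase for the uptake of dying cells, read 32.8 to 42.4 in the mutant arrays and 31.4 to 35.0 in the control arrays (0.12 ± 0.11, adjusted p = 0.578). Cd209f, a lectin of the DC-SIGN family, spanned 25.0 to 37.0 in the mutant arrays and 21.9 to 28.7 in the control arrays (0.20 ± 0.17, adjusted p = 0.524). Folr2, the folate receptor of resident macrophages, ran from 31.9 to 49.6 in the mutant arrays and from 33.9 to 41.9 in the control arrays, with a log2 fold change of 0.07 and a 95% interval of -0.31 to 0.45 (adjusted p = 0.835). Msr1, the class A scavenger receptor, was dim at 10.5 to 11.4 in the mutant arrays and 9.68 to 12.2 in the control arrays, with a log2 fold change of 0.03 and a 95% interval of -0.21 to 0.27 (adjusted p = 0.886).

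Genes that mark activated macrophages were dim and gave no call, with 0 of 4 past the threshold in limma, 1 higher and 1 lower at an unadjusted p under 0.05, and 0 in a t-test with adjustment. Arg1, the arginase of alternatively activated macrophages, read 8.06, 9.48 and 11.1 in mutant replicates 1 to 3, against 6.78, 5.12 and 8.5 in control replicates 1 to 3. Mutant replicate 1 lay below control replicate 3, and the log2 fold change of 0.51 ± 0.19 (SE) had an adjusted p of 0.145. Tnf, the inflammatory cytokine, had 4.66, 3.88 and 4.16 in the mutant arrays, against 5.03, 4.95 and 6.19 in the control arrays, apart but near the lowest values of the arrays (-0.34 ± 0.12, adjusted p = 0.106). Il1b, which encodes interleukin-1β, stood at 17.0, 16 and 20.9 in the mutant arrays, against 13.9, 16.2 and 16 in the control arrays (0.22 ± 0.12, adjusted p = 0.311). Nos2, the inducible nitric oxide synthase, overlapped fully at 5.89 to 8.73 in the mutant arrays and 6 to 8.76 in the control arrays (-0.09, 95% interval -0.52 to 0.34, adjusted p = 0.816).

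Over the arrays, the 36 genes set the groups apart by a small step. Their mean deviation from the control mean was 0.17, 0.17 and 0.21 in mutant replicates 1 to 3 and -0.02, 0.01 and 0.01 in control replicates 1 to 3, in log2 units. For the 7 genes called higher, which were picked on this contrast, it was 0.46, 0.55 and 0.53 in the mutant arrays and -0.02, 0.00 and 0.02 in the control arrays. Mutant replicate 3 held the highest of the 6 readings for 12 genes, mutant replicate 2 for 7 and mutant replicate 1 for 6, while control replicates 1, 2 and 3 held it for 2, 4 and 5. The lowest reading fell in control replicates 1 and 3 for 10 genes each. The 36 genes varied somewhat more between arrays than genes at large did, with a median SD of 0.133 in the mutant arrays and 0.159 in the control arrays, against 0.120 and 0.112 over all genes.

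**Figure D4:**
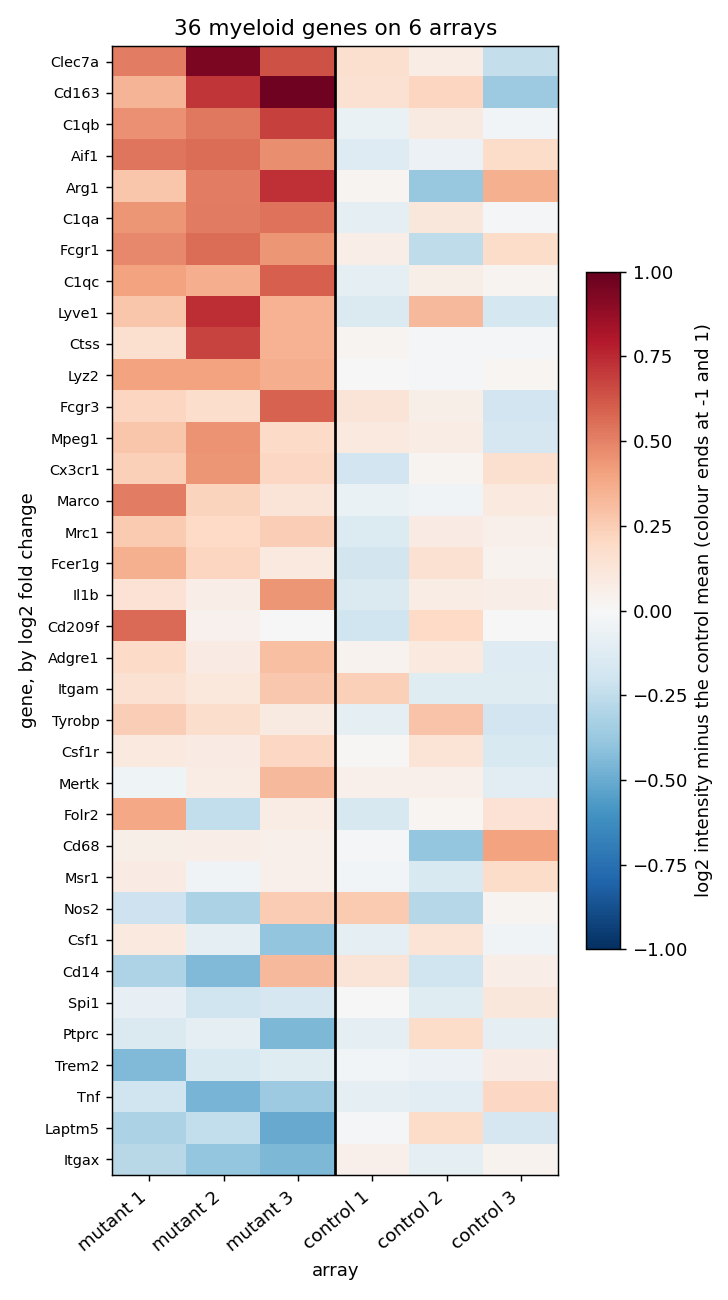
Log2 intensity minus the control mean for the 36 myeloid genes (rows, by fold change) on the 3 mutant arrays (left) and 3 control arrays (right), on a colour scale that ends at -1 and 1. Clec7a and Cd163 stand at one end and Itgax and Laptm5 at the other, with all 3 mutant arrays of 1 sign. Cd68, at a log2 fold change of 0.06, varies within the control arrays, and Nos2, at -0.09, within both groups.

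Lists of related genes, none of them members, gave calls in both directions. Of 35 other macrophage surface genes, 5 were called higher and 0 lower in limma (16 higher and 0 lower at an unadjusted p under 0.05, 0 in a t-test with adjustment), with a median log2 fold change of 0.22. Clec4n, which encodes dectin-2, was higher by 0.88 (adjusted p = 0.0151), Ms4a6d by 0.66 (0.0334) and the inhibitory receptor gene Pilra by 0.46 (0.0311), on the log2 scale and all at mean intensities below 16. These calls were fragile. Without control replicate 1 or mutant replicate 2 Clec4n was not called (adjusted p up to 0.065), Ms4a6d and Pilra were called without mutant replicate 1 but not without any of the other 5 arrays (adjusted p up to 0.119 and 0.101), and the list's count of higher calls ran from 0 to 4 when 1 array was left out. Among 18 further Fc receptor and ITAM genes, Syk, the kinase that Clec7a and Fc receptors signal through, was the 1 called, 0.81 higher (adjusted p = 0.0301), and it too was called without mutant replicate 1 but not without any of the other 5 arrays (adjusted p up to 0.0946). The mean intensity of Syk was also below 16.

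Of 13 further complement genes, 3 were called higher and 3 lower. Masp1, a protease of the lectin pathway, was 2.79 higher on the log2 scale (adjusted p = 0.000465), and Cd55, which shields cells from complement, fell by 1.47 (0.000216), and both calls held without any 1 array. Cfi, the protease that inactivates C3b, fell by 1.85 (adjusted p = 0.028) but not called without control replicate 1, control replicate 3, mutant replicate 1 or mutant replicate 2 (adjusted p up to 0.103). Among 12 transcription factors used by myeloid cells 1 was higher and 3 lower. With any 1 array left out 0 of them were called higher, while a t-test with adjustment called 1 higher and 2 lower. Klf4 fell by 1.19 (adjusted p = 0.000381) and Cebpb fell by 0.56 (0.00447), both called without any 1 array. Maf fell by 1.01 (0.0228), but was not called when control replicate 1, control replicate 2 or mutant replicate 2 was left out (adjusted p up to 0.0836). Klf4 and Cebpb are also made by epithelial cells, and Cd55 by many cell types.

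Of 9 growth factors and receptors, Kitl, the KIT ligand, was 0.83 higher (adjusted p = 0.00883, held without any 1 array), and Csf3, the neutrophil growth factor, fell by 0.90 (0.0128, but 0.0587 without control replicate 1). Efferocytosis and lipid handling genes gave 2 higher and 2 lower calls of 17. The iron exporter gene Slc40a1 fell by 1.34 (adjusted p = 0.00363) and the integrin gene Itgb5 fell by 0.87 (0.00821), both held without any 1 array, and the fatty acid transporter gene Cd36, shared with adipocytes and capillaries, was 1.77 higher (0.037) but not called without control replicate 1 or without any of the 3 mutant arrays (adjusted p up to 0.134). Pattern recognition genes gave 0 higher and 2 lower calls of 32, as Casp1, the protease that matures interleukin-1β, fell by 1.02 (adjusted p = 0.00415, held without any 1 array) and Tlr4, the lipopolysaccharide receptor, fell by 0.66 (0.029, called without mutant replicate 3 but not without any of the other 5 arrays, adjusted p up to 0.104). The 23 lysosome and oxidase genes gave 0 higher and 2 lower calls, the cathepsin genes Ctsk at -0.56 (adjusted p = 0.0343) and Ctsb at -0.35 (0.0279). Ctsk was not called without control replicate 1, control replicate 3, mutant replicate 2 or mutant replicate 3 (adjusted p up to 0.127), and Ctsb was called without mutant replicate 1 but not without any of the other 5 arrays (adjusted p up to 0.0964). Of 24 pan-leukocyte genes 2 were higher and 0 lower, with a median of 0.05. Fyb was 0.45 higher (adjusted p = 0.0155, but 0.0722 without control replicate 1), and Cd48 was 0.40 higher (0.0203), called without mutant replicate 3 but not without any of the other 5 arrays (adjusted p up to 0.0626).

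**Figure D5:**
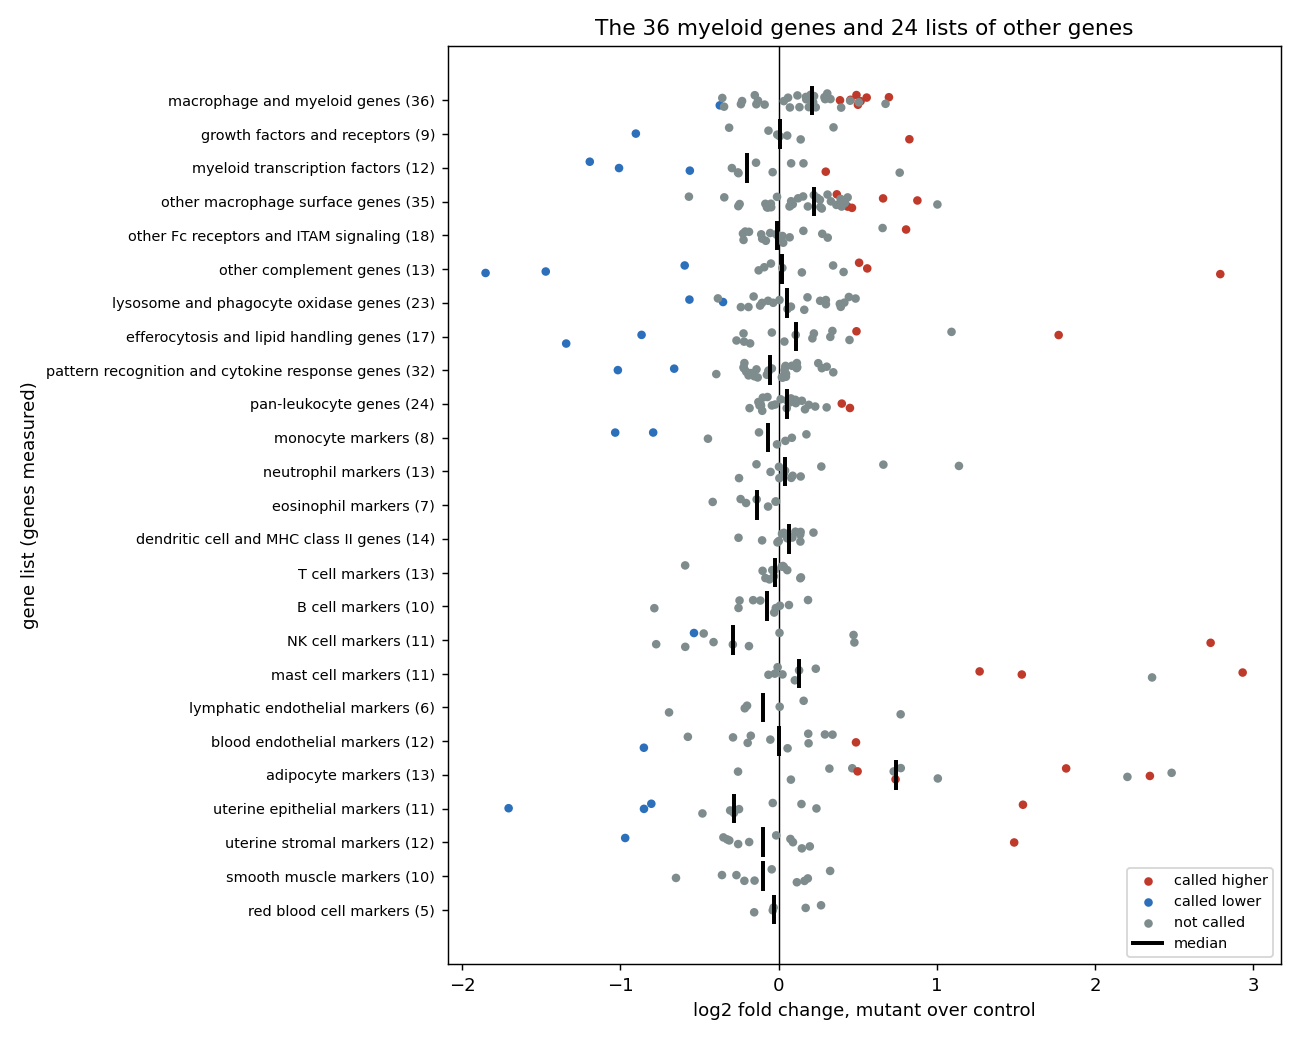
Log2 fold change, mutant over control, of each measured gene in the 36 myeloid genes and in 24 lists of other genes, with the number measured in parentheses and a black bar at each list's median. The median is 0.21 for the myeloid genes, 0.22 for the other macrophage surface genes and 0.74 for the adipocyte markers.

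Markers of other cell types were set beside these results, and their part in them was not tested. Of 11 mast cell markers 3 were called higher in mutant uteri and 8 were not called, 7 overlapped between the groups, and the median log2 fold change was 0.13. Their summed intensity was 867 to 1095 in the mutant arrays, against 413 to 472 in the control arrays, and much of that difference was Hdc, at 383 to 682 in the mutant arrays and 52.8 to 82.4 in the control arrays. Hdc, the histamine-forming enzyme, was 2.93 higher (adjusted p = 0.000545) and the receptor gene Kit 1.27 higher (0.000577), both held without any 1 array, and Ms4a2, the β chain of the IgE receptor that signals with Fcer1g, was 1.54 higher (0.014) but not called without control replicate 1 or mutant replicate 2 (adjusted p up to 0.0611). The mean intensity of Ms4a2 was below 16. Of 13 adipocyte markers 4 were called higher and 9 were not called, 10 read higher on every mutant array than on every control array, and the sums were 3151 to 5080 in the mutant arrays and 752 to 2108 in the control arrays. Cidec, a lipid droplet protein, was 1.82 higher (adjusted p = 0.009) and the lipase gene Lipe 0.74 higher (0.00814), both held without any 1 array, and the adipokine gene Retn was 2.35 higher (0.0407) but not called without control replicate 1 or any of the 3 mutant arrays (adjusted p up to 0.146). The adipocyte sum was highest in mutant replicate 2, as were Aif1, Clec7a, Fcgr1, Ctss, Cx3cr1, Mpeg1 and Lyve1, while the summed C1q intensity was highest in mutant replicate 3. Among the control arrays both sums were highest in control replicate 2.

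Monocyte markers gave 0 higher and 2 lower calls of 8. Plac8 fell by 1.03 (adjusted p = 0.0116, but 0.0552 without control replicate 1) and Fn1, which stromal cells make in quantity, fell by 0.79 (0.018), but was not called without control replicate 1, control replicate 3, mutant replicate 2 or mutant replicate 3 (adjusted p up to 0.0746). Plac8 read 519 to 868 in the mutant arrays and 1241 to 1475 in the control arrays. Which cells made Plac8 was not tested. Lists of 13 neutrophil, 7 eosinophil, 14 dendritic cell and MHC class II, 13 T cell and 10 B cell genes gave 0 calls in limma and 0 in a t-test with adjustment, with 1, 0, 0, 0 and 0 genes higher and 0, 2, 0, 1 and 3 lower at an unadjusted p under 0.05. A mean intensity of 16 or more was reached by 0 eosinophil, 6 dendritic cell, 1 T cell and 0 B cell genes. Dim signal thus limits what 0 calls can say about eosinophils, T cells and B cells. The summed neutrophil markers ranged from 259 to 828 in the mutant arrays and from 266 to 741 in the control arrays, with 1 of 13 at a mean intensity of 16 or more, and S100a8 was at 1.14 on the log2 scale (adjusted p = 0.15, and 0.0467 without mutant replicate 1). The genes with the lowest p in the other lists were Prg2 of eosinophils at -0.21 (adjusted p = 0.153), Batf3 of dendritic cells at -0.25 (0.373, and 0.0401 without mutant replicate 1), Cd3g of T cells at -0.59 (0.108) and Mzb1 of B cells and plasma cells at -0.25 (0.14). Of 11 NK cell markers 1 was called higher and 1 lower in limma, with 2 higher and 6 lower at an unadjusted p under 0.05. Their median log2 fold change was -0.29, with 4 positive and 7 negative. Gzma was 2.73 higher (adjusted p = 0.000494, held without any 1 array). Ncr1, which defines the lineage, fell by 0.54 (0.0469), but lost its call whichever 1 array was left out (adjusted p up to 0.153). The mean intensity of Ncr1 was below 16.

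Lymphatic endothelial markers, of interest beside Lyve1, gave 0 calls of 6 in limma and 0 in a t-test with adjustment, with 1 higher and 1 lower at an unadjusted p under 0.05, and Prox1, the defining factor, was at 0.77 (adjusted p = 0.0734, and 0.0467 without mutant replicate 1). Their summed intensity was 346 to 392 in the mutant arrays and 362 to 481 in the control arrays. Blood endothelial markers gave 1 higher and 1 lower call of 12. Tek, an angiopoietin receptor, fell by 0.85 (adjusted p = 0.0282), but was not called without control replicate 1, control replicate 2, mutant replicate 2 or mutant replicate 3 (adjusted p up to 0.093), and Flt1, a VEGF receptor, was 0.49 higher (0.0381), lost without control replicate 1, control replicate 3, mutant replicate 1 or mutant replicate 2 (up to 0.137). Among markers of the uterine layers, the epithelial gene Wnt7a fell by 1.71 (adjusted p = 0.00531), Foxa2 of the glands was 1.54 higher (0.00193), the stromal gene Hand2 1.49 higher (0.00315), and Pgr fell by 0.97 (0.0027), all held without any 1 array. The mutant mice were Pgr cre/+, while the labels call the controls wild type. The part of the cre allele in the Pgr reading was not tested. Elf3 fell by 0.85 (0.0301) but not called without control replicate 1 or any of the 3 mutant arrays (up to 0.109). Smooth muscle markers gave 0 calls of 10 and red blood cell markers 0 of 5 in limma and in a t-test with adjustment, with 1 and 0 higher and 2 and 0 lower at an unadjusted p under 0.05. Of the 5 red blood cell markers 0 had a mean intensity of 16 or more. Oxtr of smooth muscle was at -0.65 (adjusted p = 0.0557, and 0.0336 without control replicate 2) and Slc4a1 of red blood cells 0.27 (0.212).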

How the data were processed

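Uterine RNA of 3 mutant and 3 control samples was read on 6 arrays. The authors deposited 1 linear intensity per probe set and array. RMA stands in the submitters' processing notes, with version and filters not given in the sources used here. No batch or scan date was given in the labels, so none was tested. Probe sets were named from GEO's platform annotation. Of 45037, 34945 had 1 gene symbol, 932 had several and 9160 had none. Gene identifiers of 34741 probe sets matched the RefSeq table, and 0 symbols differed. The probe sets read for Itgb5, Hdc, Masp1 and some other named genes were of a kind whose probes can match other transcripts.

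Log2 was taken of the intensities, and the brightest probe set by mean log2 value stood for each of 18193 genes. The comparison of mutant with control used lmFit and eBayes of limma 3.58.1 (R 4.3.3) without covariates. The p-values of all genes were adjusted together by the Benjamini-Hochberg method, and genes under 0.05 were called. The array analysis names no test, so the t-test named for other measurements was run as an alternative. The members and the 24 lists of other genes were chosen with earlier results of these data known. All 36 members were named, and of each other list the 3 called genes with the largest change, or the gene with the smallest p where none was called. Promoter sequences came from RefSeq on GRCm38.p6. Same-numbered mutant and control arrays did not deviate together in every pair (correlations 0.0107, 0.212 and 0.164), so the numbers were not taken as pairs. No 2 arrays held equal values at over 2.11% of probe sets. The steps were tested on simulated data. The alternatives were 2 other scalings, 3 other readings of a gene, 2 treatments of low values, 2 variance models, the replicate block, the t-test and 7 fits on fewer arrays. Other experiments of the study were not analysed here.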

Additional observations from a re-analysis of the deposited data

How the results depend on the processing

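The member counts were taken again under 18 alternatives. The 7 higher calls became 3 (C1qa, Fcgr1 and Lyz2) with intensities below 16 set to 16. No reading of Aif1, C1qb, C1qc or Clec7a was under 16. For them the floor changed only the variance and adjustment shared over all genes. The higher calls became 1 (Lyz2) in the methods' t-test, and ran from 0 to 8 when 1 array was left out, lowest without control replicate 1. The 1 lower call, Itgax, became 0 with the probe set of largest range, with the lowest 40% of genes left out, with the floor, with an intensity trend and in the t-test, and ran from 0 to 1 when 1 array was left out. With the replicate number as a block the counts were 7 higher, with Lyve1 called and Fcgr1 not, and 2 lower, Itgax and Laptm5. Over all genes 1021 were higher and 1157 lower, against 966 and 1085 with the block, 283 and 243 with the floor, and 105 and 39 in the t-test, and leaving out 1 array gave 480 to 971 higher and 372 to 1139 lower. The median log2 fold change of 0.21 was 0.19 after quantile normalization, 0.23 without the lowest 40% of genes, 0.16 with the floor, 0.26 with array weights, 0.24 without control replicate 2 and mutant replicate 1, and 0.16 to 0.28 when 1 array was left out. Of single members, 574 fits kept their direction and side of the threshold, 44 lost a call, 7 gained one and 14 turned sign. For the other named genes these numbers were 649, 158, 9 and 1. The mean of all probe sets turned Csf1 to 0.058 and Laptm5 to 0.0094, the probe set of largest range turned Laptm5 to 0.64, and the floor turned Batf3 to 0.015. With 1 array left out, Csf1 ran from -0.243 to 0.00093 (turned without mutant replicate 3), Folr2 from -0.0863 to 0.231 (control replicate 1, mutant replicate 1), Nos2 from -0.260 to 0.0406 (control replicate 1, mutant replicate 2), Cd68 from -0.134 to 0.260 and Msr1 from -0.0453 to 0.123 (control replicate 2), and Cd14 from -0.374 to 0.0085 (mutant replicate 2). Without both control replicate 2 and mutant replicate 1, Cd68 was -0.135, Folr2 -0.0763 and Msr1 -0.0682. The cause of these shifts was not tested. Dim signal limits the 9 members below an intensity of 16.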
